A study of Mus musculus with 18 samples.

Results

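The genes described here encode the proteins of the cytosolic ribosome, measured by microarray in the livers of mice given monocrotaline. Members were all genes on the array whose current mouse symbol is Rpl or Rps followed by a number and at most 1 letter, together with Rplp0, Rplp1, Rplp2 and Rpsa. Rps27l, the Rps6k kinases and pseudogenes were left out. This gave 80 genes, 50 of the large (60S) and 30 of the small (40S) subunit, read by 169 of the 39429 probes and standing among 32451 gene names on the array. Rps4l fits the name pattern but is annotated as a transcribed pseudogene in RefSeq, so it was not counted. Genes that encode ribosomal proteins under other kinds of name, Rps3a1, Fau and Rack1 among them, were followed as a separate list. The rule rests on names and annotation and not on measured values, but earlier results of these data were known when it was set.

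Monocrotaline (MCT) is a pyrrolizidine alkaloid of Crotalaria plants that the liver converts into reactive pyrroles, and it injures the hepatic sinusoids. Male C57BL/6 mice of 6 weeks were fasted for 12 h and dosed once by mouth with saline (control), with MCT at 270 mg/kg (MCT 270) or with MCT at 330 mg/kg (MCT 330), 8 mice to a group. Livers were taken 48 h after dosing, and 3 livers of each group were labelled as hybridised to 1-colour arrays. No group carries a transgene or an engineered allele. Whole liver RNA was measured, so fewer cells of a type and less RNA per cell cannot be told apart.

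A ribosome is built in the nucleolus from ribosomal RNA made by RNA polymerases I and III and from imported ribosomal proteins, with the help of assembly factors that do not stay in the finished particle. The mRNAs of the ribosomal proteins begin with a 5′ terminal oligopyrimidine (TOP) tract, a run of C and T from the first base, through which mTORC1 and Larp1 control their translation. Their amount in a cell is therefore set by translation and protein stability as well as by mRNA level, and arrays measure only the last of these. Several of the genes serve as reference genes in liver work, because their mRNAs are abundant and found in every cell type.

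The 9 arrays did not hold 9 independent samples. In each group, replicates 2 and 3 lay at the same slide position in different scans and differed by less than repeated spots of a probe on 1 array: the SD of their log2 difference was 0.714 times that of repeated spots in control, 0.522 times in MCT 270 and 0.799 times in MCT 330. MCT 330 replicate 1 differed from the other MCT 330 arrays by 1.09 and 1.098 times the SD of repeated spots, whereas replicate 1 of MCT 270 differed from its fellows by 3.02 and 3.12 times and that of control by 4.27 and 4.42 times. The arrays were therefore averaged into 5 samples: control sample 1 (replicate 1), control sample 2 (replicates 2 and 3), MCT 270 sample 1 (replicate 1), MCT 270 sample 2 (replicates 2 and 3) and 1 MCT 330 sample (all 3 arrays). The MCT 330 arrays were scanned apart from all others, so scan and MCT 330 cannot be told apart, and with 1 sample the spread within MCT 330 was taken from the pooled spread of control and MCT 270. The 75th percentile of the signal was 498 to 703 intensity units across arrays, 63.0% to 80.3% of probes were well above background, and no spot was saturated. All 10 hepatocyte markers, among them Alb, passed the filter on dim probes.

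The mRNAs of the cytosolic ribosome had small fold changes at either dose, and none passed the test. Of the 80 genes, 77 passed the filter on dim probes, which keeps a probe that is well above background on every array of at least 1 group. With limma and Benjamini-Hochberg adjustment over 24820 genes, 0 of 77 had an adjusted p under 0.05 in MCT 330 against control, where 33.2% of all genes did. In MCT 270 against control 0 of 77 passed, beside 0% of all genes, and in MCT 330 against MCT 270 0 of 77 passed, beside 21.8% of all genes. At an unadjusted p under 0.05, 1 of 77 passed at MCT 330 (Rps19, beside 47.1% of all genes), 1 of 77 at MCT 270 (Rps21, beside 18.6%) and 0 of 77 between the doses (beside 38.9%). Log2 fold changes of the 77 genes over control lay between -0.55 and 0.76 at MCT 330 and between -0.57 and 0.42 at MCT 270. None of the 77 changed by more than 2-fold at MCT 330, whereas 32.3% of all genes did. The 77 genes were much brighter than the typical gene. Their median log2 signal was 6.12 to 6.59 across the arrays, where that of all genes was -1.88 to -1.55. The 77 genes were not set against genes of similar signal, so the part of signal level in these contrasts with all genes was not tested. The counts of genes that passed depended on the sample structure and the scaling. With MCT 330 replicate 1 taken as a sample of its own, Rps19 and Rpl5 rose and Rps21 fell at MCT 330, which is 3 of 77 beside 56.2% of all genes. With all 9 arrays as separate samples, which counts repeat scans as livers, 21 of 77 passed at MCT 330 (6 higher, 15 lower, beside 73.4%), 11 at MCT 270 (beside 39.1%) and 4 between the doses (beside 65.6%). The replicate number as a block in that fit gave 20 (beside 72.9%), 11 (beside 38.3%) and 3 (beside 64.9%). Under other scalings, 3 of 77 rose at MCT 330 with quantile normalization (beside 31%), 12 with normexp (beside 30.7%) and 1 with median scaling (beside 30.1%), and none fell. With only probes well above background on all 9 arrays, 1 of 77 rose (beside 42.2%).

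Moderate changes in single genes lay within the intervals of the fit. The median SE of a log2 fold change over the 77 genes was 0.26 at MCT 330 and 0.21 at MCT 270. The 95% interval of the log2 fold change lay within -1 and 1 for 61 of 77 genes at MCT 330 and for 70 of 77 at MCT 270. The widest reach of any interval was -1.19 downward and 1.41 upward at MCT 330.

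**Figure D1:**
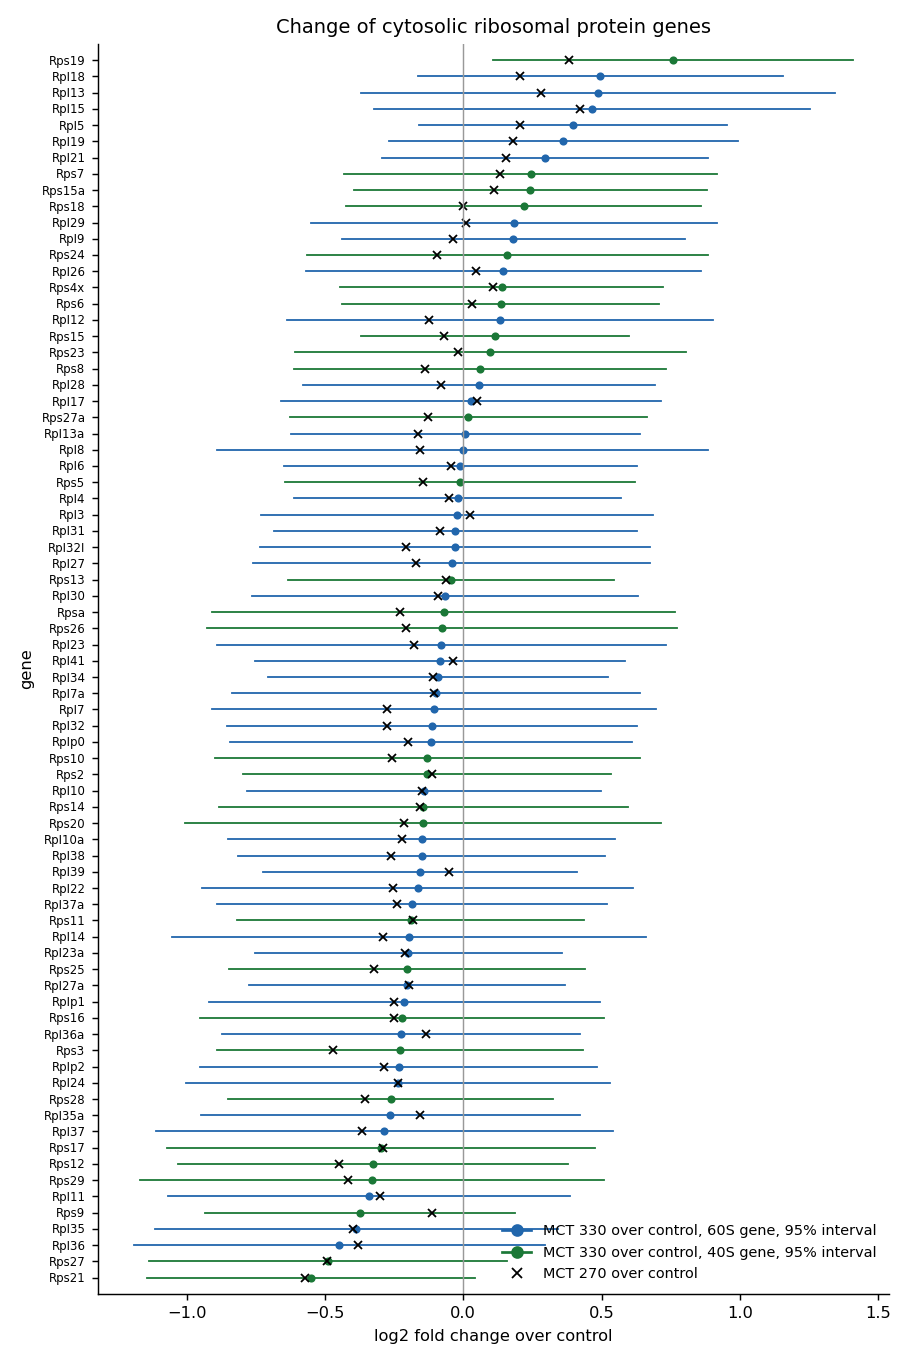
Log2 fold change over control of 76 of the 77 cytosolic ribosomal protein genes that passed the filter on dim probes (x axis), 1 gene per row in the order of the MCT 330 value. Dots and bars give MCT 330 over control with the 95% interval from limma (60S genes blue, 40S genes green), and crosses give MCT 270 over control. The MCT 330 values run from -0.55 (Rps21) to 0.76 (Rps19), and Rps19 has an interval that does not reach 0.

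The direction of the whole group differed between scalings and, with the 75th percentile, between the control samples it was set against. With that scaling the median log2 fold change over the 77 genes was -0.09 at MCT 330, with 52 genes negative, against an all-gene median of -0.25. At MCT 270 it was -0.15, with 61 genes negative, against an all-gene median of -0.02. The 2 subunits gave the same medians to within 0.02: at MCT 330 the 60S genes had -0.09 and the 40S genes -0.10, and at MCT 270 they had -0.15 and -0.15. Between the doses, MCT 330 against MCT 270, the median was 0.09, with 63 of 77 genes positive, against an all-gene median of -0.23.

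With the 75th percentile, the 77 genes differed more between the control samples than between the MCT 270 samples or between the doses. Every one of the 77 was higher in control sample 2 than in control sample 1, by a median of 0.44 on the log2 scale and by 0.04 (Rps15) to 0.69 (Rpl8), while the median of all genes differed by -0.01. Between the MCT 270 samples the median difference over the 77 genes was 0.06. The median log2 signal of the 77 genes, relative to the 75th percentile of each array, was 6.12 and 6.54 in the control samples, 6.16 and 6.19 in the MCT 270 samples and 6.26 in the MCT 330 sample. By this median and with this scaling, the treated samples lay between the control samples. Set against control sample 1 the MCT 330 sample was higher in 59 of 77 genes (median 0.15), and set against control sample 2 it was higher in 12 of 77 (median -0.34). The MCT 330 value lay between the control values for 47 of 77 genes (61.0%), compared with 13.4% of all genes.

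**Figure D2:**
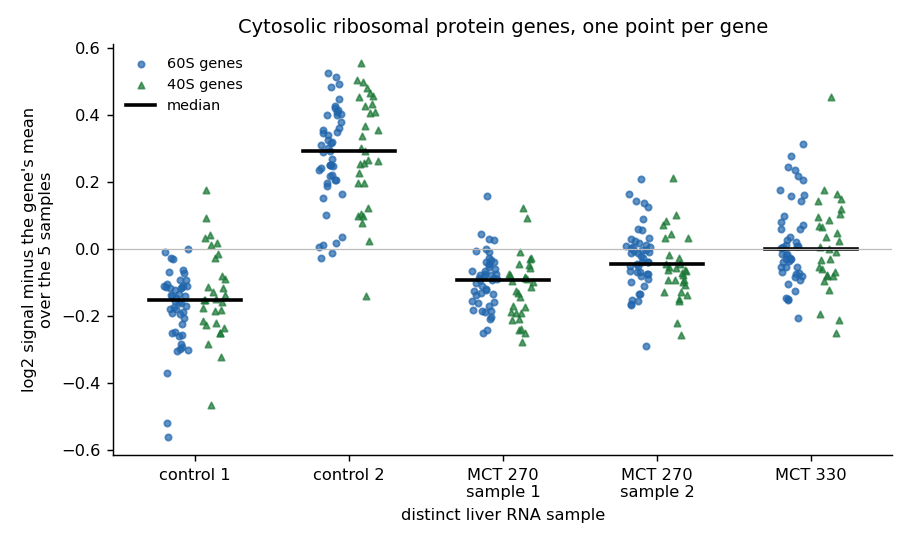
Log2 signal of each of the 77 cytosolic ribosomal protein genes minus that gene's mean over the 5 samples (y axis), by sample (x axis); circles are 60S genes, triangles 40S genes and bars the median. The medians are -0.15 in control sample 1, 0.29 in control sample 2, -0.09 and -0.05 in the MCT 270 samples and 0.00 in the MCT 330 sample, so with this scaling the control samples lie farthest apart.

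With quantile normalization in place of the 75th percentile, control sample 2 was higher than control sample 1 in 69 of 77 genes, by a median of 0.17. The MCT 330 sample then lay above both controls, in 74 of 77 genes against control sample 1 (median 0.32) and in 64 of 77 against control sample 2 (median 0.14). With normexp these counts were again 74 and 64, with medians of 0.32 and 0.15, while the control samples differed by 0.16. The distance of MCT 330 from control sample 1 thus exceeded that between the controls under both settings. The distance of MCT 330 from control sample 2 was smaller than that between the controls under both. Median scaling placed the MCT 330 sample above control sample 1 in 77 of 77 genes (median 0.60) and above control sample 2 in 37 of 77 (median -0.03). The fitted median over the 77 genes at MCT 330 was 0.23 with quantile normalization, with an all-gene median of -0.11. Scaling to the array median gave 0.30 with an all-gene median of 0.13, and background correction by normexp with quantile normalization gave 0.24 with an all-gene median of -0.02. Scaling thus moved the all-gene median by over 0.1, and relative to it the 77 genes lay higher by 0.16 with the 75th percentile, by 0.34 with quantile, by 0.26 with normexp and by 0.16 with median scaling. Against control sample 2 alone (without control replicate 1) the 75th percentile gave a member median of -0.34, below the all-gene median of -0.29. At MCT 270 the member median was also of either sign, -0.15 with the 75th percentile and 0.03 with quantile normalization.

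Among the single genes Rps19, a protein of the small subunit needed for 18S rRNA maturation and mutated in human Diamond-Blackfan anaemia, had the highest fold change at MCT 330. Its log2 signal was 2.57 and 2.89 in the control samples, 2.98 and 3.25 in the MCT 270 samples and 3.49 in the MCT 330 sample. The values of the 3 groups did not overlap and were ordered by dose. The log2 fold change was 0.76 ± 0.25 (SE) at MCT 330 (limma, adjusted p = 0.0756), a 1.69-fold difference, and 0.38 ± 0.20 at MCT 270 (limma, adjusted p = 0.387). Rps19 had an adjusted p of 0.0389 with quantile normalization, 0.0411 with median scaling and 0.048 with the stricter filter on dim probes, so its call turned on these choices.

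Rpl18, a large-subunit protein, was next. Its log2 signal was 3.56 and 3.94 in the control samples, 3.85 and 4.06 in the MCT 270 samples and 4.25 in the MCT 330 sample, and the MCT 270 values overlapped those of control. The fitted log2 fold change was 0.49 ± 0.25 (SE) at MCT 330 (limma, adjusted p = 0.19). Rpl13 had 4.92 and 5.54 in the control samples, 5.37 and 5.64 in the MCT 270 samples and 5.71 in the MCT 330 sample. At MCT 330 the log2 fold change was 0.49 ± 0.33 (SE), and the distance between its control samples was larger than that change. The other probes of Rpl13 had log2 fold changes of 0.13 and -0.02 at MCT 330. At MCT 270 they had -0.11 and -0.33, where its brightest probe had 0.28. Rpl15, whose human counterpart is also mutated in Diamond-Blackfan anaemia, had 5.61 and 6.20 in the control samples, 6.33 and 6.33 in the MCT 270 samples and 6.37 in the MCT 330 sample. All treated samples lay above both controls, yet control sample 2 was nearer to them than to control sample 1. The log2 fold change of Rpl15 was 0.42 ± 0.25 (SE) at MCT 270 and 0.47 ± 0.30 at MCT 330 (limma, adjusted p = 0.419 and 0.282). A second, dimmer probe of Rpl15 had 0.57 at MCT 270 but -0.01 at MCT 330, so the MCT 330 value rests on the brightest probe. Rpl19, a large-subunit protein that reaches across the subunit interface, and Rpl5 completed the highest 6 at MCT 330. Their log2 fold changes were 0.36 and 0.40. At MCT 270, a comparison that shares its control samples with this one, the highest values beside Rpl15 and Rps19 were those of Rpl13 (0.28), Rpl5 (0.20), Rpl18 (0.20) and Rpl19 (0.18).

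At the other end stood Rps21, a small-subunit protein. Its log2 signal was 4.76 and 5.09 in the control samples, 4.37 and 4.33 in the MCT 270 samples and 4.37 in the MCT 330 sample. Every treated sample lay below both controls, and the treated samples lay within 0.1 of each other. The log2 fold change was -0.57 ± 0.18 (SE) at MCT 270 and -0.55 ± 0.23 at MCT 330 (limma, adjusted p = 0.215 and 0.124). Rps27, a small-subunit protein with a zinc finger, had 6.97 and 7.38 in the control samples, 6.64 and 6.73 in the MCT 270 samples and 6.69 in the MCT 330 sample. The log2 fold change was -0.49 at both doses, with an SE of 0.20 at MCT 270 and 0.25 at MCT 330. Rpl35, which sits near the exit of the peptide tunnel, had 6.70 and 7.19 in the control samples, 6.46 and 6.63 in the MCT 270 samples and 6.56 in the MCT 330 sample. All treated samples lay below both controls while the doses overlapped, and its log2 fold change was -0.40 at MCT 270 and -0.39 at MCT 330. The lowest 6 at MCT 330 were completed by Rpl36 (-0.45), Rps9 (-0.37) and Rpl11 (-0.34), and at MCT 270 by Rps3 (-0.47), Rps12 (-0.45) and Rps29 (-0.42), none of which passed the test.

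In the 77 genes, both MCT 270 samples lay below both controls for 15 genes (19.5%) and above both for 3 genes (3.90%), beside 27.4% and 25.4% of all genes. The 3 above were Rpl5, Rpl15 and Rps19, and the 15 below included Rps21, Rps27, Rps3, Rps12, Rps29, Rpl35, Rpl36, Rpl11 and Rplp2. These positions are those of the brightest probe, and a dimmer probe of Rps3 had a log2 fold change of 0.17 at MCT 270. For MCT 270 the control samples and the treated samples of scan 1 can be set against each other directly: with only those 4 arrays the median over the 77 genes was -0.15 and 0 of 77 passed, beside 0.0041% of all genes. Scan was also used as a block over the 6 arrays of scans 1 and 2, with each array as a separate sample. This counts replicates 2 and 3 of a group as separate livers. In that fit Rps21 alone passed (log2 fold change -0.64, limma, adjusted p = 0.0245). It is 1 of 77 beside 20.7% of all genes.

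**Figure D3:**
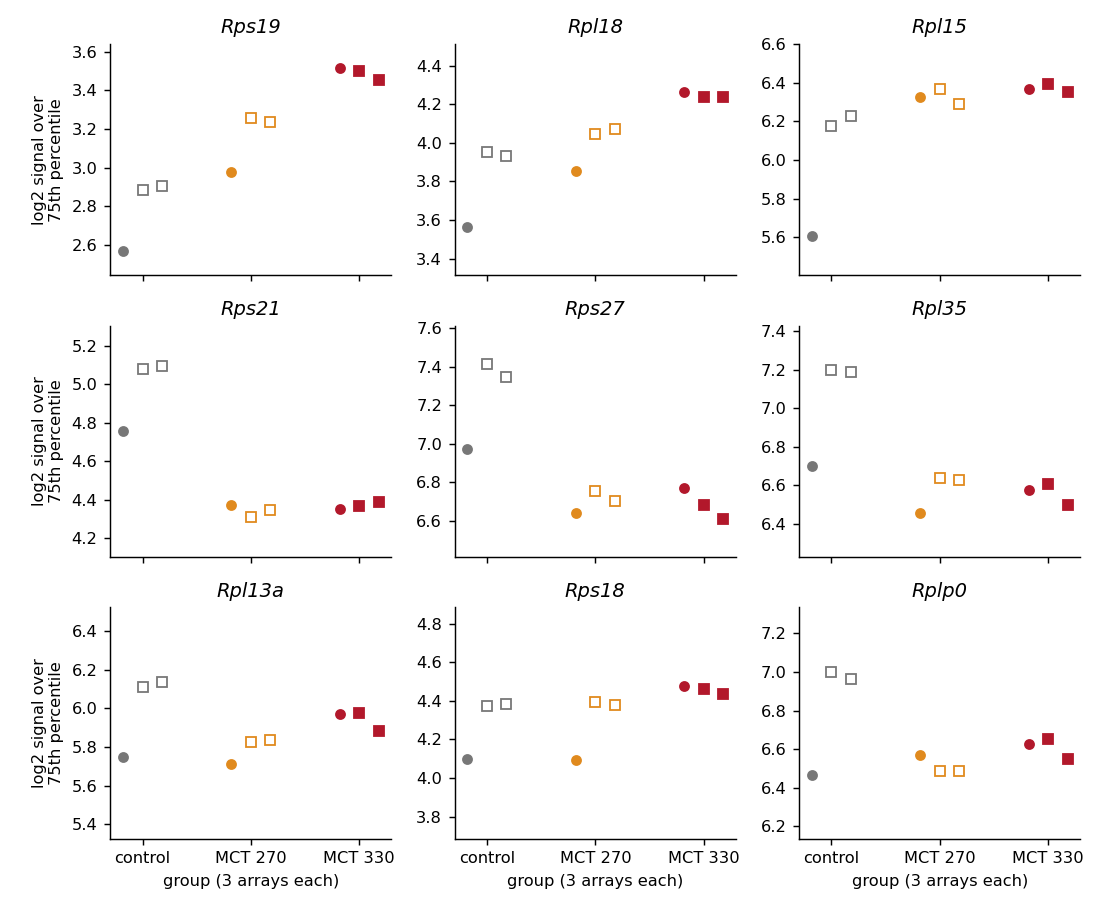
Log2 signal relative to the 75th percentile of each array (y axis, a span of 1.2 in every panel) for 9 genes on the 9 arrays, by group (x axis). Filled circles are replicate 1, squares replicates 2 and 3, and open squares mark pairs that enter as 1 sample; all 3 MCT 330 arrays enter as 1 sample. Rps19 and Rpl18 are highest at MCT 330, Rps21, Rps27 and Rpl35 are lower at both doses than in control, and Rpl13a, Rps18 and Rplp0 lie at MCT 330 within 0.1 of, or between, the control samples.

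The stalk proteins Rplp0, Rplp1 and Rplp2 form the lateral arm of the large subunit that recruits elongation factors. Rplp0, also a common reference gene, had a log2 signal of 6.47 and 6.98 in the control samples, 6.57 and 6.49 in the MCT 270 samples and 6.61 in the MCT 330 sample. Its log2 fold change was -0.12 ± 0.28 (SE) at MCT 330 (95% interval -0.84 to 0.61). The log2 fold changes at MCT 330 of Rplp1 and Rplp2 were -0.21 and -0.23, and those at MCT 270 were -0.25 and -0.29. For all 3 the distance between the control samples (0.41 to 0.52) was larger than the change, and the sign at MCT 330 turned positive with quantile, normexp and median scaling.

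Rpl5 and Rpl11 join the 5S ribosomal RNA in a particle that, when ribosome assembly fails, binds the p53 ubiquitin ligase Mdm2, and Rpl23 binds Mdm2 as well. Rpl5 had a log2 signal of 4.03 and 4.29 in the control samples, 4.35 and 4.38 in the MCT 270 samples and 4.56 in the MCT 330 sample. Its groups did not overlap, and its log2 fold change was 0.40 ± 0.21 (SE) at MCT 330 (limma, adjusted p = 0.207), with an adjusted p of 0.0462 under quantile normalization. Rpl11 had 6.48 and 7.00 in the control samples, 6.46 and 6.42 in the MCT 270 samples and 6.40 in the MCT 330 sample. In all treated samples Rpl11 lay just below control sample 1 and well below control sample 2, with a log2 fold change of -0.34 ± 0.28 (SE) at MCT 330. Rpl23 had a log2 fold change of -0.08 ± 0.31 (SE) at MCT 330. The mRNA of Mdm2 itself rose at MCT 330, with a log2 fold change of 1.86 ± 0.21 (SE, limma, adjusted p = 0.00966).

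Rps6, the small-subunit protein phosphorylated by S6 kinases downstream of mTORC1, had a log2 signal of 5.89 and 6.17 in the control samples, 6.02 and 6.10 in the MCT 270 samples and 6.17 in the MCT 330 sample. All treated samples fell within the span of the controls, and the log2 fold change at MCT 330 was 0.14 ± 0.22 (SE). Rpsa, a small-subunit protein that is also the precursor of the laminin receptor, had a log2 fold change of -0.07 ± 0.32 (SE) at MCT 330. Rps27a is made as a fusion with ubiquitin, and its log2 fold change at MCT 330 was 0.02 ± 0.25 (SE). Fau, made as a fusion with a ubiquitin-like protein, stands outside the name rule and had a log2 fold change of -0.28 at MCT 330, which did not pass the test. The reference genes Rpl13a and Rps18 had log2 fold changes of 0.01 ± 0.24 and 0.22 ± 0.24 (SE) at MCT 330, with 95% intervals of -0.62 to 0.64 and -0.42 to 0.86. Rpl13a had a log2 signal of 5.75 and 6.12 in the control samples, 5.71 and 5.83 in the MCT 270 samples and 5.94 in the MCT 330 sample. The controls of this gene were farther apart than the treated samples. Rps18 had a second probe with a log2 fold change of -0.42 at MCT 330.

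Between the doses, MCT 330 over MCT 270, the higher log2 fold changes included those of Rps19 (0.38), Rpl18 (0.29), Rpl12 (0.26), Rps24 (0.25) and Rps3 (0.24). Rps19 had an SE of 0.25 and the lowest adjusted p of the 77 genes in this comparison (limma, 0.328). The lowest were Rps9 (-0.26), Rpl35a (-0.11), Rpl39 (-0.11), Rpl36a (-0.09), Rpl36 (-0.07) and Rpl41 (-0.05). Rps9, a small-subunit protein involved in decoding accuracy, had a log2 signal of 5.94 in the MCT 330 sample, against 6.32 and 6.09 in the MCT 270 samples. The spread between the doses was narrow: the lower and upper quartiles of the log2 fold changes were 0.01 and 0.15, against -0.82 and 0.22 for all genes.

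The start of the gene is shown because the TOP tract is the sequence feature that this group is known to share. The lines are a choice among members at either end of the comparisons and members named by role. Most of those chosen begin with a run of C and T, so the lines do not show how common it is among the members. Each line gives 15 bases before and 15 bases from the annotated RefSeq start (GRCm38.p6), 5′ to 3′ on the gene's strand, with the run of C and T from the start in capitals. Where a gene had several annotated starts, the one with the longest run was taken.
Rps21, chr2:180257364-180257393, plus strand: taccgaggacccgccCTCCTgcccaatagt
Rps27, chr3:90213634-90213663, minus strand: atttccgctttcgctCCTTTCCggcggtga
Rpl35, chr2:39005117-39005146, minus strand: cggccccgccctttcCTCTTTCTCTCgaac
Rpl15, chr14:18270972-18271001, minus strand: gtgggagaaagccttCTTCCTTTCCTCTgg
Rps6, chr4:86857353-86857382, minus strand: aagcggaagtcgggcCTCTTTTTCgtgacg
Rplp2, chr7:141447636-141447665, plus strand: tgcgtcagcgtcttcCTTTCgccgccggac
Rps18, chr17:33955651-33955680, minus strand: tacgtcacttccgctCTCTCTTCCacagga
Rps19, chr7:24884577-24884606, plus strand: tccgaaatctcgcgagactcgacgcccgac
Rpl5, chr5:107900513-107900542, plus strand: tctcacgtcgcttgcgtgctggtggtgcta

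Among the starts shown, the run is present both in Rpl15, among the highest genes, and in Rps21, Rps27 and Rpl35, among the lowest. It is absent at the annotated start of Rps19 and Rpl5, and an annotated start may lie some bases from the one a liver cell uses. Of the 80 genes, 60 matched the RefSeq table of starts, with 71 starts. A C at the start followed by at least 4 further C or T was found at 14 of 71 starts (19.7%), compared with 2.51% of all 32851 starts in the table. In the window from 250 bases before to 50 bases after the start, searched on both strands, the ETS-type core CCGGAAG was found at 35.2% of member starts and 8.86% of all starts. The YY1-type sequence AAGATGGC was found at 9.86% and 2.75%, and TATAAA at 9.86% and 13.6%. The 14 genes with the run had median log2 fold changes of -0.23 at MCT 270 and -0.14 at MCT 330. The 43 other matched genes that passed the filter had -0.11 and -0.08, and the difference was not tested.

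Different probes of a gene did not always give the same answer. Of the 163 member probes that passed the filter, 5 had an adjusted p under 0.05 at MCT 330 in a limma fit over 29932 probes, 1 higher and 4 lower, beside 32.9% of all probes. In 50 genes with several probes the log2 fold changes at MCT 330 spanned a median of 0.22 within a gene, and in 21 of them they had both signs. The 5 probes belonged to Rpsa (1.01), Rpl27a (-0.78), Rpl30 (-0.86), Rpl6 (-1.13) and Rpl21 (-1.25), and none was the brightest probe of its gene. The brightest probes of these genes had -0.07, -0.20, -0.07, -0.01 and 0.30 in the same order. The low Rpl21 probe read -2.65 and -2.76 in the control samples, -2.96 and -2.65 in the MCT 270 samples and -3.95 in the MCT 330 sample, while the brightest Rpl21 probe read 4.35 and 4.61, 4.54 and 4.74, and 4.78. In each of these genes the single probe stood apart from the others. The mouse genome holds many processed copies of ribosomal protein genes, and whether a probe also read a copy or a rare transcript was not tested.

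**Figure D4:**
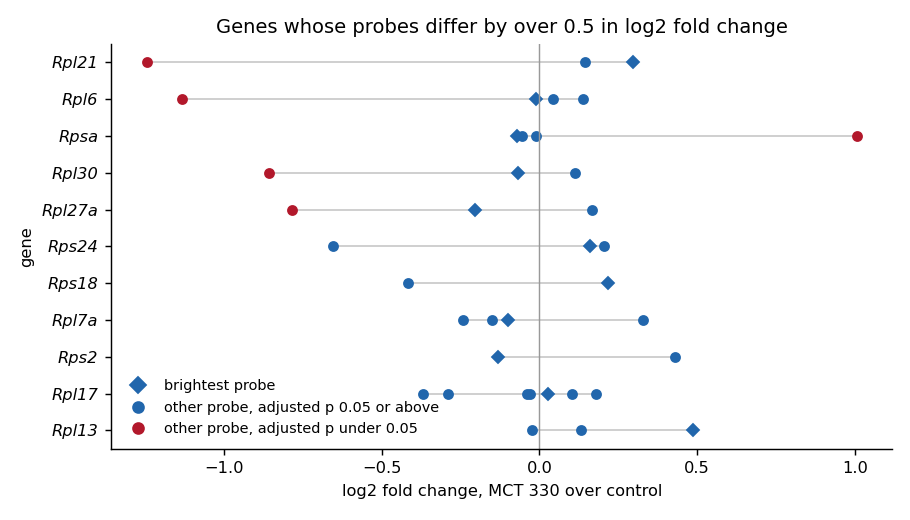
Log2 fold change of MCT 330 over control (x axis) for every probe of the 11 cytosolic ribosomal protein genes whose probes differ by over 0.5 (rows). Diamonds are the brightest probe of a gene, circles its other probes, and red marks an adjusted p under 0.05 in the fit over all probes. The 5 red points, from -1.25 (Rpl21) to 1.01 (Rpsa), lie away from the diamond of their gene.

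The 3 genes that did not pass the filter were Rpl3l, Rpl10l and Rpl39l, tissue-restricted relatives of Rpl3, Rpl10 and Rpl39. They were not well above background on every array of any group and have no value here. Rpl32l, a near-identical relative of Rpl32 on chromosome 10, passed with a log2 fold change of -0.03 at MCT 330, but its probe may not tell the 2 apart. Rpl22l1, a relative of Rpl22 that falls outside the name rule, fell at MCT 330. Its log2 signal was 5.03 and 5.50 in the control samples, 4.18 and 4.24 in the MCT 270 samples and 4.19 in the MCT 330 sample. The treated samples lay below both controls, and the doses overlapped. The fitted log2 fold change was -1.05 at MCT 270 and -1.07 ± 0.26 (SE) at MCT 330 (limma, adjusted p = 0.0379 at MCT 330). Rps27l and Rps4l, left out of the members, had log2 fold changes of 0.07 and -0.17 at MCT 330, neither past the test.

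Of the 8 ribosomal protein genes and relatives outside the name rule, 1 rose (Rpl7l1, 0.75) and 1 fell (Rpl22l1) at MCT 330, with a median log2 fold change of -0.11. No gene of this list passed without MCT 270 replicate 1 or without a filter on dim probes. None rose when control replicate 1 or 2, MCT 270 replicate 3 or MCT 330 replicate 1 was left out, and none fell with median scaling. The median was of the opposite sign with quantile (0.21), normexp (0.24) and median scaling (0.28). The mitochondrial ribosomal proteins, which serve the separate ribosome of that organelle, had 1 of 78 higher and 2 of 78 lower at MCT 330 and a median of -0.09. Those that passed were Mrps6 (1.02), Mrps28 (-1.38) and Mrpl14 (-0.88). With normexp 6 rose and 3 fell, with median scaling 6 rose and 0 fell, and without MCT 270 replicate 1 none passed. The mitochondrial median was 0.02 with quantile, 0.04 with normexp and 0.29 with median scaling. All-gene shares at MCT 330 were 9.47% higher and 23.8% lower.

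The factors that build and use ribosomes had larger changes at MCT 330 than the ribosomal proteins, though the difference between lists was not tested. Of 72 genes of ribosome biogenesis and RNA polymerase I, 24 rose and 1 fell at MCT 330, with a median log2 fold change of 0.61. Of all genes, 9.47% rose and 23.8% fell at MCT 330, with a median of -0.25. At MCT 270 none of the 72 passed, beside 0% of all genes, and the median was -0.02, as was that of all genes. Among those that rose were Taf1c and Taf1b, subunits of the selectivity factor that places RNA polymerase I on the ribosomal RNA promoter (1.73 and 1.61), Utp15 of the small-subunit processome (1.55) and the nucleolar GTPase Gnl3 (1.52). Gnl3 had a log2 signal of -0.30 and 0.09 in the control samples, -0.34 and -0.14 in the MCT 270 samples and 1.41 in the MCT 330 sample. Only the MCT 330 sample stood apart for this gene, by 1.52 ± 0.25 on the log2 scale (SE, limma, adjusted p = 0.0164). The gene that fell was Gnl3l (-1.32). The count of 24 was 14 without control replicate 1, where 8.73% of all genes rose and 21.8% fell, and 3 without MCT 270 replicate 1, where 4.07% rose and 10.3% fell. It was 28 with quantile normalization (all genes 11.5% higher and 19.5% lower), 41 with normexp (15.2% and 15.6%) and 39 with median scaling (16.5% and 13.6%).

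Of 34 translation initiation factors, 7 rose and 1 fell at MCT 330 (median 0.38). Beside this list and those that follow stand all-gene shares of 9.47% higher and 23.8% lower. With quantile, normexp and median scaling, 11.5%, 15.2% and 16.5% of all genes rose. Eif6, which keeps new 60S subunits from joining 40S too early, had a log2 signal of 1.92 and 1.89 in the control samples, 2.45 and 2.49 in the MCT 270 samples and 3.67 in the MCT 330 sample. Its log2 fold change was 1.77 ± 0.18 (SE) at MCT 330 over control and 1.20 at MCT 330 over MCT 270 (limma, adjusted p = 0.00921 and 0.0234). Eif1, which guards start codon choice, fell (-1.04). The count of 7 was 4 without control replicate 1, 1 without MCT 270 replicate 1, 11 with quantile, 21 with normexp and 13 with median scaling. Of 16 elongation factors and other mRNAs with TOP tracts, Hnrnpa1 (2.16) and Eef1g (0.94) rose at MCT 330 and none fell, with a median of 0.36. Those that rose numbered 5 with quantile (median 0.55), 10 with normexp (0.59) and 6 with median scaling (0.74), and 1 without control replicate 1 (0.19) or without MCT 270 replicate 1 (0.36). Of 24 regulators of mTORC1, TOP mRNAs and ribosome stress, 2 rose and 3 fell: Mdm2, and Ddit4, an inhibitor of mTORC1 (1.85), rose, and the translational repressor Eif4ebp2 (-2.08), the mTORC1 subunit Rptor (-1.34) and the mTOR inhibitor Deptor (-1.48) fell. Myc, a transcription factor that drives ribosome biogenesis genes, had a log2 signal of 0.07 and 0.81 in the control samples, 0.05 and 1.95 in the MCT 270 samples and 3.39 in the MCT 330 sample. Its log2 fold change was 2.95 ± 0.84 (SE) at MCT 330 (limma, adjusted p = 0.0537).

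**Figure D5:**
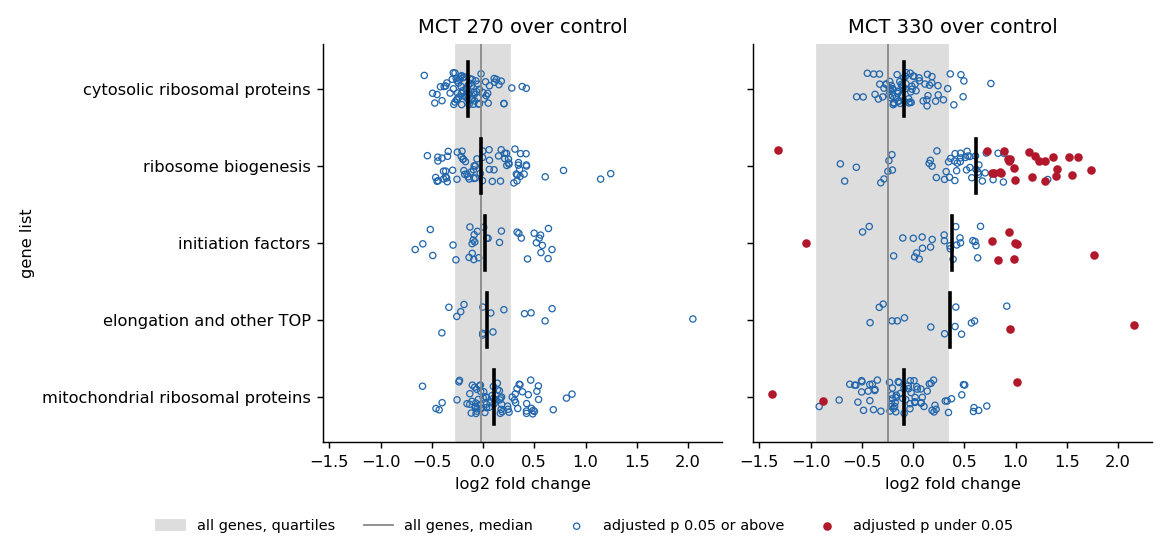
Log2 fold change over control (x axis) of the genes of 5 lists (rows), at MCT 270 (left) and MCT 330 (right); each point is a gene, filled red where the adjusted p was under 0.05, black bars are list medians, and the grey band and line give the quartiles and median of all genes. The cytosolic ribosomal proteins stay within -0.57 and 0.76 with no red point. At MCT 330, 24 of 72 ribosome biogenesis genes are red to the right of 0, beside 9.47% of all genes that rose.

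Markers of other cell types moved at MCT 330 as well, where 9.47% of all genes rose and 23.8% fell. Of 7 neutrophil markers tested, 5 rose, and the sum of their signals over the 75th percentile was 8.65 to 11.6 on the control arrays, 8.21 to 9.16 on the MCT 270 arrays and 40.1 to 41.4 on the MCT 330 arrays. All 6 monocyte and recruited macrophage markers tested rose, with sums of 2.23 to 2.40, 3.88 to 4.91 and 10.8 to 11.6 in the same order of groups. Of 8 sinusoidal endothelial markers, 7 fell, with sums of 34.0 to 35.4, 12.3 to 14.7 and 8.59 to 8.84. Of 7 Kupffer cell markers 4 fell, with sums of 19.4 to 22.7, 11.6 to 12.8 and 7.75 to 7.89, and of 7 stellate cell markers 4 fell and 1 rose. Of 10 hepatocyte markers 3 fell, with sums of 2706 to 3077, 2343 to 2902 and 2113 to 2511. Lymphocyte markers had 4 of 10 higher and 1 lower, although their sum ran the other way, with 2.28 to 2.39, 2.08 to 2.25 and 2.02 to 2.12. Cholangiocyte markers had 1 of 6 higher, erythroid markers 1 of 4 higher and exocrine pancreas markers 3 of 7 lower. Without MCT 270 replicate 1 the calls were 4 higher for neutrophil, 6 for monocyte and 1 for lymphocyte markers, and 5 lower for endothelial, 4 for Kupffer cell, 2 for stellate cell, 1 for pancreas and 0 for hepatocyte markers, and the stellate and erythroid rises were not called. The 3 hepatocyte calls, close to the all-gene share of 23.8% lower, were 1 with quantile, 3 with normexp and 0 with median scaling. Over those scalings 5 to 6 lymphocyte markers rose, 5 to 7 endothelial markers fell, and the neutrophil, monocyte and Kupffer cell counts were as above. The part of these cell types in the values of the ribosomal protein, biogenesis and translation factor genes was not tested.

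Over the 5 samples, the genes outside the members whose pattern was most like the mean of the 77 were Stmn1, Kif18a, Cpsf4, Tars and Chaf1b, with Pearson correlations of 0.992 to 0.999 among 13948 genes that varied at least as much as that mean. Kif18a was dim, with -5.25 and -3.99 in the control samples and -4.77 in the MCT 330 sample, beside all-gene array medians of -1.88 to -1.55. Stmn1 had a log2 signal of 1.43 and 2.95 in the control samples, 1.62 and 1.78 in the MCT 270 samples and 2.01 in the MCT 330 sample. Like the mean of the 77 genes it was highest in control sample 2, and with 5 points from 5 samples the likeness is a description. The correlation of the single members with their mean ran from 0.16 upward with a median of 0.91, the mean including each of them.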

How the data were processed

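The 9 mRNA files hold Agilent Feature Extraction 11.0.1.1 output, per the file headers and the submitters' processing notes. The processed signal is an intensity that the scanner software had background-subtracted before it was deposited, with no normalization between arrays. Control and outlier spots were left out, spots of a probe averaged, and log2 intensity taken minus each array's 75th percentile. Accessions were matched to RefSeq symbols for 21464 of 33258 names. An unmatched name was kept as a gene of its own and, where it passed the filter, counts in the all-gene shares. A gene took its brightest probe. Groups were compared with limma 3.58.1 in R 4.3.3 (lmFit, eBayes) over 24820 genes, with adjusted p under 0.05 as threshold, and tested on simulated data. In the joined MCT 330 arrays, 2192 spot values that differed by over 1 on the log2 scale from the values of the same spot on each of the fellow arrays were dropped. Arrays were to be joined up to a ratio of 1 to repeated spots. The limit was raised to 1.5 after the array comparisons and some probe values had been seen, and before the fits; Rps4l was set aside at the same stage. The raised limit puts MCT 330 replicate 1 with its fellows, and the result with it as its own sample is given beside the counts. The dropped spot values were left out of that fit too. Nothing records separate extractions, and p-values measure only the spread between these samples. Members, lists and named genes (the 6 highest and 6 lowest in each comparison, and genes by role) were chosen with earlier results of these data known. Some single genes are not reported here by name; they stay in the counts and medians. Equal replicate numbers did not pair arrays: correlations of deviations from group means were -0.05 to 0.06.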

Additional observations from a re-analysis of the deposited data

How the results depend on the processing

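The number of independent samples limits the precision. The fits with MCT 330 replicate 1 as its own sample and with scan 1 alone were chosen after seeing the data. Leaving out each array in turn, 0 of 77 genes passed in every comparison, and member medians ranged from -0.34 to -0.061 at MCT 330, from -0.35 to -0.11 at MCT 270 and from 0.05 to 0.11 between the doses. The lowest values over control came without control replicate 1. With the 9 arrays as separate samples, 21 passed at MCT 330, 11 at MCT 270 and 4 between the doses, and with the replicate number as a block 20, 11 and 3. With MCT 330 replicate 1 as a sample of its own 3 passed at MCT 330, with quantile normalization 3 (median 0.23), with normexp 12 (median 0.24), with median scaling 1 (median 0.30, and 0.44 between the doses) and with the filter on all 9 arrays 1. At MCT 270 the scan block, also with arrays as separate samples, gave 1. The direction of single genes turned as follows, and the cause was not tested. At MCT 330, normexp turned Rpl36 (0.042), Rpl35 (0.020) and Rpl11 (0.020), and median scaling turned Rps9 (0.0098) and Rpl11 (0.043). Quantile, normexp and median scaling turned Rplp0 (0.21, 0.22, 0.27), Rplp1 (0.077, 0.21, 0.17), Rplp2 (0.17, 0.17, 0.15), Rpl23 (0.22, 0.28, 0.30) and Rpsa (0.27, 0.21, 0.31). The mean over probes turned Rpsa (0.22), Rps27a (-0.085) and Rps18 (-0.036). Separate arrays and the replicate block each turned Rps27a (-0.050) and Rpl13a (-0.055). Leaving out single arrays, Rps6 ranged from -0.0081 to 0.18, Rps27a from -0.19 to 0.043 and Rpl13a from -0.18 to 0.038. At MCT 270, Rpl13 turned with the mean over probes (-0.053), the scan block (-0.17) and scan 1 alone (-0.11), and ranged from -0.11 to 0.42 over single arrays left out, since another of its probes is then the brightest in some fits. Between the doses, quantile and normexp turned Rpl35a (0.026, 0.083), Rpl36a (0.022, 0.060), Rpl36 (0.074, 0.11) and Rpl41 (0.082, 0.11). Normexp and the mean over probes turned Rpl39 (0.029, 0.017). Median scaling turned Rps9 (0.093), Rpl35a (0.25), Rpl39 (0.25), Rpl36a (0.26), Rpl36 (0.28) and Rpl41 (0.30). Scan as a block was not run at MCT 330, since its scans hold no other group.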
